A study of Homo sapiens with 6 samples.

Results

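The 47 genes described here encode proteins that carry a cell through mitosis. They were chosen by function and by name, from the mitotic cyclins and kinases, the spindle checkpoint, the kinetochore, the kinesins, condensin and cytokinesis, with FOXM1 and MKI67 added. The rule uses no measured value, although the choice was made with earlier results of these data known. All 47 were among the 34486 genes to which a deposited transcript could be matched, and all 47 were among the 13047 genes with enough reads to be tested. RNA came from MCF10A, an immortalised and non-tumorigenic line of human breast epithelial cells of wild-type genotype, grown with epidermal growth factor, insulin, hydrocortisone, cholera toxin and horse serum. Cells of both groups were reverse-transfected with siRNA at 10 nM and taken after 48 h. The siPDCD4 group (3 libraries) received siRNA against PDCD4, and the siCT group (3 libraries) a control siRNA. PDCD4, a tumour suppressor that binds RNA, is known for inhibiting the helicase eIF4A. The knockdown was transient, rested on a single siRNA reagent, and left some PDCD4 mRNA in place. Whether the 3 libraries of a group are separate cultures is not stated in the labels, so p-values measure only how these libraries vary, and that variation may be technical. The question asked of the members was whether their mRNA level differed between siPDCD4 and siCT.

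Mitosis begins when cyclin B binds the kinase CDK1 and phosphatases of the CDC25 family remove the inhibitory phosphates from it. Polo and Aurora kinases, kinesins and microtubule proteins then build the spindle, condensin compacts the chromosomes, and the checkpoint holds the anaphase-promoting complex until every kinetochore is attached. Many of these genes are transcribed together late in the cycle, under the MuvB complex, B-MYB and FOXM1, and are low in resting cells. In RNA from a whole culture, fewer cells in mitosis and less mRNA per cell cannot be told apart.

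Totals of estimated counts lay between 13410441 and 21828931 per library, with 76.2% to 86.4% of them on protein-coding genes. The siCT replicate 3 library was lowest in total and in this share. All 8 markers of basal mammary epithelium were present, with KRT5, a basal keratin, between 1916 and 2601 CPM (counts relative to library size, scaled between libraries and corrected for transcript length). Among the 10 markers of blood, endothelial, fibroblast and hormone receptor-positive luminal cells, CD3E and PGR were among those at 0 in all 6 libraries. The highest value of these 10 was 4.28 CPM, for PECAM1 in siPDCD4 replicate 3.

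The silenced gene was checked first. PDCD4 stood at 90.4, 89.0 and 61.1 CPM in siCT replicates 1, 2 and 3, and at 9.15, 7.43 and 8.62 CPM in siPDCD4 replicates 1, 2 and 3. The groups lay far apart in every library. The log2 fold change was -3.25 ± 0.17 (SE, n = 3 per group), with an adjusted p of 2.16e-05 in edgeR's quasi-likelihood test with Benjamini-Hochberg adjustment.

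None of the 47 mitosis genes passed the test. At an adjusted p (false discovery rate, FDR) under 0.05, edgeR called 0 of 47, where 0.429% of all tested genes were called. DESeq2 also called 0 of 47, where it called 1.46% of all genes it gave an adjusted p. At an unadjusted p under 0.05, edgeR found 4 of 47 members, or 8.51%, against 8.62% of all tested genes, so the members' share was close to the background. Of the 4, CDC25C, CENPE and KIF4A were lower in siPDCD4 and FOXM1 was higher. The lowest adjusted p of any member was 0.470 in edgeR, for CDC25C.

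The log2 fold changes of the members were small in size. They ran from -0.30 (CDC25C) to 0.45 (SPC25), and 31 of 47 (66.0%) were below 0, where 51.3% of all tested genes were. Their median was -0.06, and that of all tested genes -0.01. The 95% intervals of 43 members included 0. For 46 of 47 the interval lay wholly within a 2-fold change in either direction (a log2 value of 1), and for 45 of 47 (95.7%) it lay within 0.5 on the log2 scale, which 57.1% of all tested genes allowed. The members were measured with less error than the average gene, with a median SE of 0.10 on the log2 scale against 0.14. All but SPC25 had over 200 counts in every library.

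**Figure D1:**
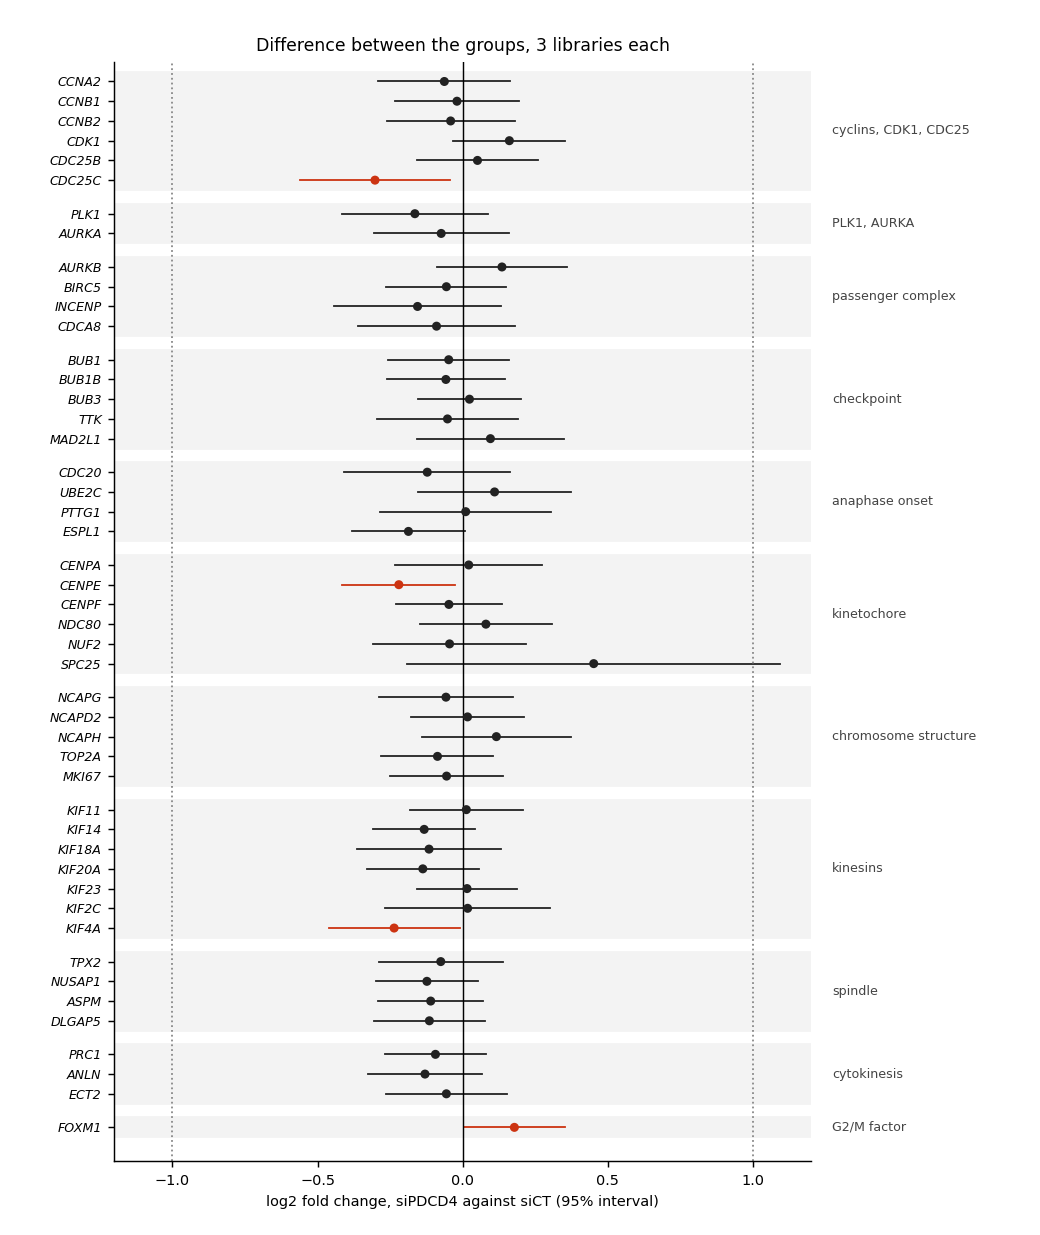
Log2 fold change of each of the 47 mitosis genes, siPDCD4 against siCT, grouped by role, with the 95% interval as a bar and n = 3 libraries per group. Red marks the 4 genes with an unadjusted p under 0.05, none of which passed an FDR of 5%, and the dotted lines mark 2-fold changes, which 46 of 47 intervals did not reach.

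The groups separated without overlap for 4 members in the lower direction, CDC25C, CENPE, ESPL1 and NUSAP1. Over all tested genes 7.14% did so. In the higher direction FOXM1 alone did, against 6.81% of all tested genes.

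The members share a feature of sequence that did not enter their choice. The CHR (cell cycle genes homology region) is the element through which MuvB complexes are known to bind late cell cycle promoters, and the CCAAT box is bound by the factor NF-Y. RefSeq promoter windows (GRCh38.p14, 250 bases before to 50 after a start) matched 40 of the 47 members by symbol, and TPX2, BIRC5, FOXM1, UBE2C, TTK, AURKA and BUB3 were not matched. The CHR letters TTTGAA, searched on both strands, occurred in 30 of the 40 (75%), and in 18.2% of the 27305 genes with a window. The letters CCAAT, also searched on both strands, occurred in 33 of the 40 (82.5%), and in 39.7% of all genes with a window. CCAAT and CHR matches were allowed to share bases, as in MKI67 and CDCA8. Both occurred together in 25 members (62.5%) and in 8.37% of all genes. A gene with several windows was counted once. These are matches of letters, not measured binding sites, and no other spelling of either element was searched.

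The stretches below are the 100 bases just before the start, 5′ to 3′ on the strand of the gene, with TTTGAA and CCAAT (or its reverse complement ATTGG) in capitals. CDC25C, KIF4A and ESPL1 are shown because they had 3 of the 5 smallest p-values among the members and carry both elements. The 5 also included CENPE, whose window held neither, and FOXM1, which had no window. In each stretch of this group a CCAAT box stood upstream of a CHR that began between 30 and 34 bases before the start. Where a gene had several windows, the one with the most CHR letters in these 100 bases is shown. In another of the 4 windows of CDC25C the CHR letters began at base 44 after the start. CDC25C lies at chr5:138331805-138331904 on the minus strand, KIF4A at chrX:70290004-70290103 and ESPL1 at chr12:53268199-53268298, both on the plus strand.
CDC25C: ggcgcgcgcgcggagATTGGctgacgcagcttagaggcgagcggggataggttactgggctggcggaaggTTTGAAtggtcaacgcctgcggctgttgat
KIF4A: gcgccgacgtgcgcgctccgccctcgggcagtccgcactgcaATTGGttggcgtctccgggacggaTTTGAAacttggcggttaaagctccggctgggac
ESPL1: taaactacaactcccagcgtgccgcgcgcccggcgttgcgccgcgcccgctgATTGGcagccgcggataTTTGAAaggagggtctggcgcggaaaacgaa

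CDK1, PLK1 and CCNB2, which carry the same pair of elements, are shown because their levels sat on either side of 0 in the comparison. They lie at chr10:60778378-60778477, chr16:23678789-23678888 and chr15:59105046-59105145, all on the plus strand.
CDK1: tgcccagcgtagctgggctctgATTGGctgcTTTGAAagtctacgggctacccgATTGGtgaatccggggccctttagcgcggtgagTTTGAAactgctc
PLK1: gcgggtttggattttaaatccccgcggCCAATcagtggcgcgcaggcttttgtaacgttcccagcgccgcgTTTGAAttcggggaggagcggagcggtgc
CCNB2: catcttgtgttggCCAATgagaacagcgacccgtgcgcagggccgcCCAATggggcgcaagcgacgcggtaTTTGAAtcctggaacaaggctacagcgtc

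KIF20A and CCNB1 are shown as members with CCAAT letters and no TTTGAA letters in the whole window. They lie at chr5:138179012-138179111 and chr5:69167050-69167149, both on the plus strand.
KIF20A: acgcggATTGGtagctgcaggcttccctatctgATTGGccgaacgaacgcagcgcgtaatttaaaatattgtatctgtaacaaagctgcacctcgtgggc
CCNB1: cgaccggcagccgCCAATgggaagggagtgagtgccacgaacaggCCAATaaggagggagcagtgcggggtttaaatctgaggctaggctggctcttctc

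The CHR letters were most frequent in the members' windows just before the start. They began in the bins of 50 to 26 and 25 to 1 bases before the start in 18% and 20% of the members' 50 windows, and in 1.43% and 1.17% of all 35116 windows. Among the 51 further mitosis genes with a window, from the 3 lists of kinetochore, spindle and regulatory genes described below, 26 (51.0%) held the CHR letters on either strand and 13 (25.5%) on the given strand, where 26 of the 40 members (65%) and 10.2% of all genes held them. Of the 30 genes of the start of S phase and DNA replication with a window, 1 (3.33%) held them. The 30 members with the CHR letters had a median log2 fold change of -0.07, with 22 below 0, and the 10 without them a median of -0.01, with 5 below 0. CENPE was among those without, and the difference between these sets was not tested.

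**Figure D2:**
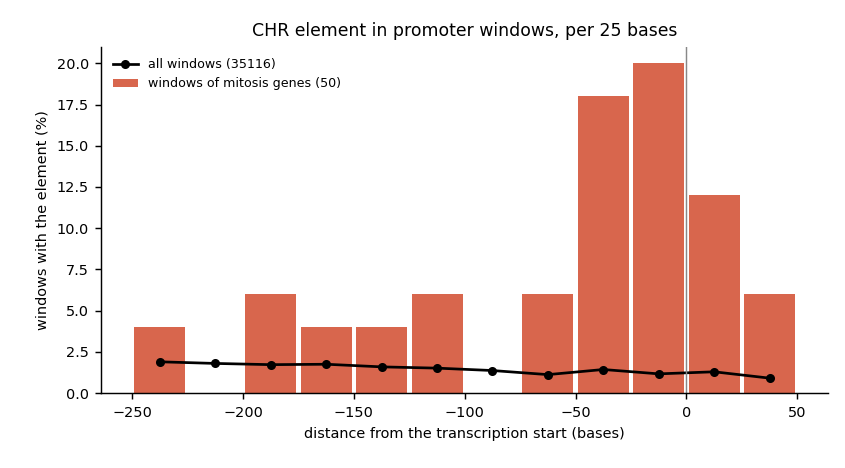
Share of RefSeq promoter windows in which the CHR letters begin, on either strand, per 25 bases of distance from the transcription start. Bars give the 50 windows of mitosis genes, which reach 18% and 20% in the 50 bases before the start, and the black line gives all 35116 windows, which stay below 2%.

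Of the cyclins, CDK1 and the CDC25 phosphatases (6 genes), 0 were called and 4 of 6 were below 0, with a median log2 fold change of -0.03. CDC25C, the phosphatase that activates CDK1 at the entry into mitosis (chromosome 5, 138285269 to 138338355, GRCh38, minus strand), stood at 24.7, 23.9 and 25.9 CPM in siCT replicates 1, 2 and 3 and at 21.5, 18.2 and 20.6 CPM in siPDCD4. Each siPDCD4 library lay below each siCT library. The log2 fold change was -0.30 ± 0.12 (SE, n = 3 per group), a mean 18.9% lower, and its 95% interval ran from -0.56 to -0.04. CDK1 itself (chromosome 10, 60778331 to 60794852) stood at 175, 164 and 146 CPM in siCT and at 183, 175 and 186 CPM in siPDCD4. Here siCT replicate 1 reached the range of siPDCD4, and the log2 fold change was 0.16 ± 0.09, with an adjusted p of 0.712 in edgeR. CCNB1, the main cyclin partner of CDK1 in mitosis (chromosome 5, 69167135 to 69178245), stood at 306, 286 and 246 CPM in siCT and at 292, 278 and 256 CPM in siPDCD4. The siPDCD4 values all lay inside the siCT range, and the log2 fold change was -0.02 ± 0.10. CCNA2 and CCNB2, cyclins of S phase to mitosis and of mitosis, had log2 fold changes of -0.06 and -0.04. CDC25B, which acts ahead of CDC25C, had 0.05.

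The kinases that build the spindle poles, PLK1 and AURKA, were both below 0. AURKA, the Aurora kinase of the centrosome (chromosome 20, 56369389 to 56392337), stood at 136, 128 and 105 CPM in siCT and at 121, 121 and 109 CPM in siPDCD4. The groups overlapped, and the log2 fold change was -0.07 ± 0.10. PLK1, the Polo-like kinase that acts at centrosomes, kinetochores and the midzone, had a log2 fold change of -0.17 ± 0.11, with an interval from -0.42 to 0.09.

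The chromosomal passenger complex moves from centromeres to the midzone and joins Aurora B to INCENP, survivin and borealin. Of its 4 genes, 3 were below 0. BIRC5, which encodes survivin (chromosome 17, 78214186 to 78225636), stood at 136, 135 and 122 CPM in siCT and at 130, 136 and 113 CPM in siPDCD4. These ranges overlapped, and the log2 fold change was -0.06 ± 0.09. INCENP and CDCA8 (borealin) had -0.16 and -0.09, and AURKB, the kinase of the complex, had 0.13 ± 0.10.

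Of the 5 genes of the spindle assembly checkpoint, which delays anaphase, 3 were below 0 and their log2 fold changes ran from -0.06 to 0.10. BUB3, the adaptor that carries BUB kinases to the kinetochore (chromosome 10, 123154402 to 123170467), stood at 222, 231 and 207 CPM in siCT and at 226, 232 and 212 CPM in siPDCD4. The groups overlapped almost fully, and the log2 fold change was 0.02 ± 0.08. BUB1 and BUB1B had -0.05 and -0.06. TTK, the kinase at the head of the checkpoint, had -0.05, and MAD2L1, its CDC20 inhibitor, had 0.10.

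The 4 genes of the metaphase to anaphase step were divided, with 2 below 0. PTTG1 encodes securin, the inhibitor of separase (chromosome 5, 160421855 to 160428739), and stood at 183, 158 and 122 CPM in siCT and at 164, 157 and 145 CPM in siPDCD4. The spread among siCT libraries was wider than any difference between the groups, with a log2 fold change of 0.01 ± 0.13. PTTG1 has near-identical intronless copies in the genome, so its estimated counts could include shared reads. ESPL1, the separase that cuts cohesin (chromosome 12, 53268299 to 53293638), stood at 64.5, 64.1 and 59.2 CPM in siCT and at 53.2, 56.0 and 55.8 CPM in siPDCD4. Its groups did not overlap, and the log2 fold change was -0.19 ± 0.09, with an interval from -0.38 to 0.01 and an adjusted p of 0.600 in edgeR. Without the correction for transcript length the log2 fold change of ESPL1 was -0.10 in edgeR and -0.11 in limma-voom. CDC20, the activator of the anaphase-promoting complex, had -0.12 ± 0.13, and UBE2C, its ubiquitin-conjugating enzyme, 0.11 ± 0.12.

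Among the 6 centromere and outer kinetochore genes, 3 were below 0. CENPE, the kinesin that brings chromosomes to the metaphase plate (chromosome 4, 103105349 to 103198445), stood at 154, 141 and 153 CPM in siCT and at 128, 139 and 118 CPM in siPDCD4. Each siPDCD4 library lay below each siCT library, by the smallest margin between siPDCD4 replicate 2 and siCT replicate 2. The log2 fold change was -0.22 ± 0.09 (SE, n = 3 per group), a mean 14.2% lower, with an adjusted p of 0.492 in edgeR. SPC25, a subunit of the NDC80 complex that grips microtubules (chromosome 2, 168834132 to 168913371), stood at 5.24, 3.12 and 7.35 CPM in siCT and at 7.79, 7.84 and 5.66 CPM in siPDCD4. The groups overlapped widely. SPC25 rested on only 54.5 to 138.9 counts per library, and its log2 fold change of 0.45 ± 0.29 had an interval from -0.19 to 1.09, so a 2-fold difference could not be told from none at this depth. Leaving out siCT replicate 2 gave 0.18, and leaving out siCT replicate 3 gave 0.76. Its partners NDC80 and NUF2 had 0.08 and -0.05. CENPF, a large protein of the kinetochore's outer layer (chromosome 1, 214603185 to 214664574), stood at 664, 625 and 612 CPM in siCT and at 620, 575 and 644 CPM in siPDCD4. Its groups overlapped, with a log2 fold change of -0.05 ± 0.08. CENPA, the histone H3 variant of centromeres, had 0.02.

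The genes of chromosome structure (5 genes) included 3 below 0. TOP2A, the topoisomerase that untangles sister chromatids (chromosome 17, 40388525 to 40417896), stood at 526, 485 and 439 CPM in siCT and at 461, 460 and 444 CPM in siPDCD4. The siPDCD4 values all lay inside the siCT range, and the log2 fold change was -0.09 ± 0.09. The condensin I subunits NCAPG, NCAPD2 and NCAPH had -0.06, 0.02 and 0.12. MKI67, the surface protein of mitotic chromosomes known as the proliferation marker Ki-67, had -0.06 ± 0.09, with an interval from -0.25 to 0.14.

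The mitotic kinesins (7 genes) had a median log2 fold change of -0.12, and 4 of 7 were below 0. KIF4A, which shortens midzone microtubules and binds condensin (chromosome X, 70290104 to 70420886), stood at 63.0, 59.5 and 54.7 CPM in siCT and at 54.9, 49.0 and 46.6 CPM in siPDCD4. The highest siPDCD4 library lay just above the lowest siCT library. The log2 fold change was -0.24 ± 0.10 (SE, n = 3 per group), a mean 15.1% lower, with an adjusted p of 0.540 in edgeR. KIF20A, a midzone kinesin (chromosome 5, 138178719 to 138187723), stood at 239, 217 and 205 CPM in siCT and at 207, 207 and 187 CPM in siPDCD4. KIF14, which acts in cytokinesis (chromosome 1, 200551497 to 200620751), stood at 175, 170 and 156 CPM in siCT and at 156, 153 and 148 CPM in siPDCD4. In both kinesins the lowest siCT library overlapped the highest siPDCD4 library, and the log2 fold changes were -0.14 ± 0.09 and -0.13 ± 0.08. KIF18A, a regulator of chromosome alignment, had -0.12. KIF11, KIF23 and KIF2C, which separate the spindle poles, bundle the midzone and depolymerise microtubules, had 0.01, 0.01 and 0.02.

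All 4 genes of spindle microtubule proteins were below 0, with log2 fold changes from -0.12 to -0.08 and 0 called. NUSAP1, which bundles spindle microtubules (chromosome 15, 41320794 to 41381050), stood at 141, 128 and 137 CPM in siCT and at 127, 124 and 122 CPM in siPDCD4. The groups did not overlap, but siCT replicate 2 and siPDCD4 replicate 1 nearly touched, and the log2 fold change was -0.12 ± 0.08. TPX2, ASPM and DLGAP5, which nucleate, focus and stabilise spindle fibres, had -0.08, -0.11 and -0.12.

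All 3 genes of the midzone and cytokinesis were below 0 as well, with 0 called. PRC1, the bundler of antiparallel microtubules (chromosome 15, 90966040 to 90995629), stood at 240, 234 and 227 CPM in siCT and at 221, 230 and 205 CPM in siPDCD4. The groups overlapped, and the log2 fold change was -0.09 ± 0.08. ANLN and ECT2, which organise the contractile ring, had -0.13 and -0.06.

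FOXM1, the transcription factor of the late cell cycle genes (chromosome 12, 2857680 to 2877174), stood at 87.3, 91.0 and 87.2 CPM in siCT and at 97.1, 101 and 102 CPM in siPDCD4. Every siPDCD4 library was above every siCT library. The log2 fold change was 0.18 ± 0.08 (SE, n = 3 per group), a mean 13.1% higher, with an interval from 0.003 to 0.35 and an adjusted p of 0.562 in edgeR. Its size rested on the correction for transcript length. Without that correction the log2 fold change was 0.04, both in edgeR and in limma-voom.

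**Figure D3:**
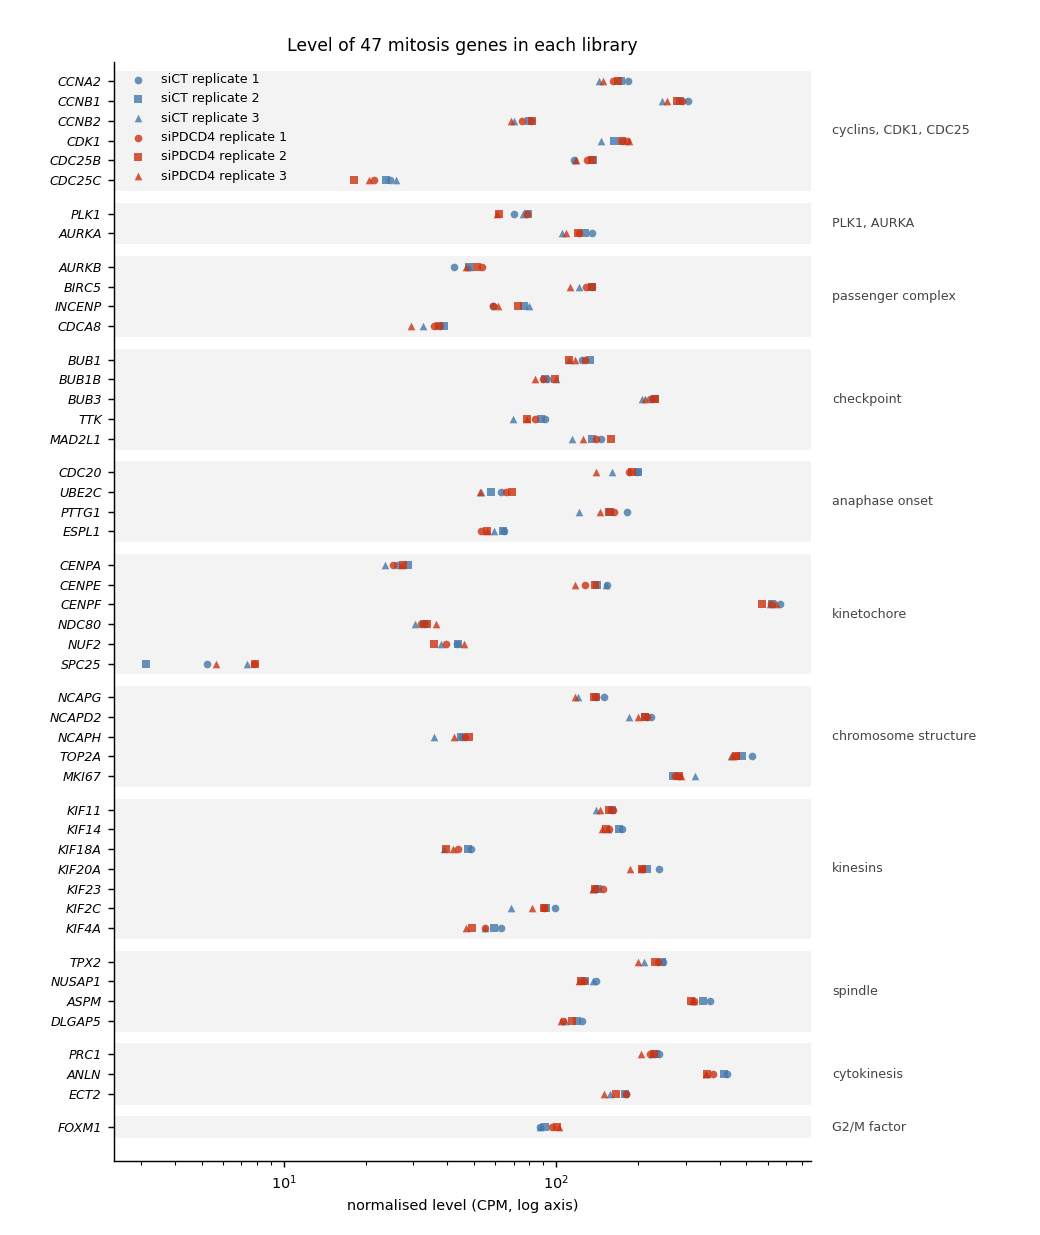
Normalised level (CPM, log axis) of each mitosis gene in each of the 6 libraries, by role; blue marks siCT, red siPDCD4, and the symbol the replicate. The symbols of the 2 groups intermingle for most genes, while CDC25C, CENPE, ESPL1 and NUSAP1 have all red symbols to the left and FOXM1 all to the right.

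The members' levels also differed between libraries of the same group. Of the 47, 24 (51.1%) had their highest level in siCT replicate 1, where 22.5% of all tested genes had theirs. The lowest level was in siCT replicate 3 for 20 and in siPDCD4 replicate 3 for 17, where 26.5% and 17.1% of all tested genes had theirs. On the log2 scale, centred on the mean of the siCT libraries, the members' median was 0.07, 0.05 and -0.12 in siCT replicates 1, 2 and 3 and -0.01, 0.00 and -0.12 in siPDCD4. The distance between siCT libraries was thus larger than that between the group means. The summed level of the 47 was 7449, 7209 and 6584 CPM in siCT and 7003, 6925 and 6551 CPM in siPDCD4, or 7081 ± 447 against 6826 ± 242 CPM (SD, n = 3 per group), and the ranges overlapped. As a share of protein-coding counts the members held 0.819%, 0.835% and 0.784% in siCT and 0.828%, 0.810% and 0.770% in siPDCD4.

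**Figure D4:**
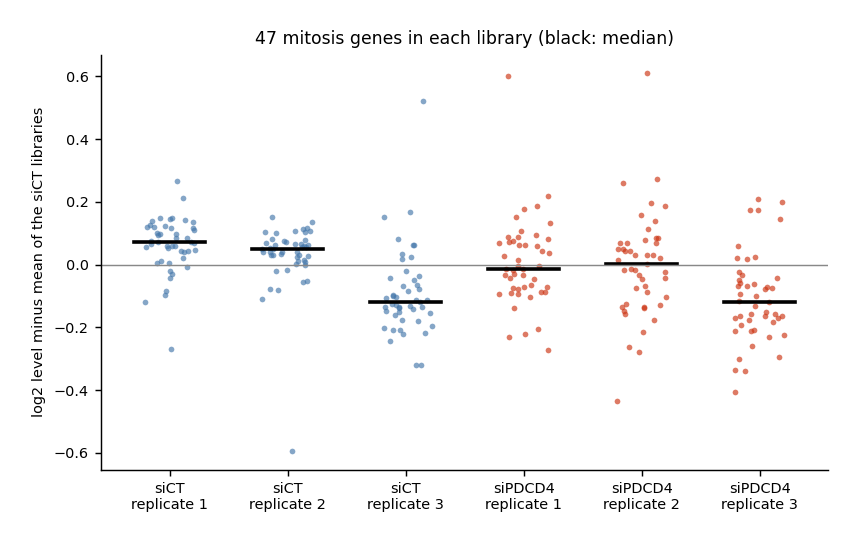
Log2 level of the 47 mitosis genes in each library, minus the gene's mean over the siCT libraries; each point is a gene and the black bar the median. The medians of replicate 3 of both groups sit at -0.12, and the other 4 libraries lie between -0.01 and 0.07.

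The siCT replicate 3 library, lowest in total and in protein-coding share, bore on the size of the differences. Without it, 37 of 47 members were below 0, against 52.2% of all tested genes, and their median was -0.11. In edgeR, 9 of the 47 had an unadjusted p under 0.05, where 11.1% of all tested genes did. Of these 9, ANLN, KIF4A, ESPL1, KIF14, ASPM, KIF20A, CENPE and TOP2A were lower and SPC25 was higher in siPDCD4. None passed an FDR of 5%, and the lowest adjusted p was 0.275 in edgeR, for ANLN. Without siPDCD4 replicate 3 the lean below 0 was gone, with 22 of 47 (against 49.2% of all tested genes) below 0 and a median of 0.01. The part of the low total and protein-coding share in these values was not tested.

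Levels of different genes were compared per transcript length, in TPM. In siCT the members spanned a 65.1-fold range, from 262 ± 53.8 TPM for PTTG1 to 4.02 ± 1.54 TPM for SPC25 (SD, n = 3). CCNB1 followed PTTG1 at 211 ± 26.0 TPM, and these did not differ beyond their spread. BUB3 at 134 ± 12.2, CDC20 at 119 ± 17.6, PRC1 at 115 ± 5.79 and NUSAP1 at 111 ± 1.92 TPM came next, neighbours within their spread. At the lower end were CDC25C at 14.7 ± 0.338, KIF4A at 14.0 ± 1.18, ESPL1 at 13.7 ± 1.01 and KIF18A at 13.1 ± 1.82 TPM. The median member stood at 42.7 TPM and the median tested gene at 10.0 TPM, and the members' median exceeded 85.1% of tested genes. In siPDCD4 too PTTG1 was the highest, at 268 ± 18.5 TPM, and SPC25 the lowest, at 5.59 ± 1.02 TPM.

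Other genes of mitosis and its control, taken from lists outside the 47, were read from the same fit. In each list edgeR called 0, where it called 0.429% of all tested genes, so lists of this size would rarely hold a call. Of 25 further kinetochore and centromere genes, 12 were below 0 and the median log2 fold change was 0.00. SPAG5, a kinetochore and spindle protein, had -0.20 ± 0.11, and HJURP, the chaperone that deposits CENPA, had 0.17 ± 0.09. Of 19 further spindle, kinesin and cytokinesis genes, 12 were below 0, with a median of -0.04. CIT, the citron kinase of the midbody, stood at 56.9, 59.3 and 67.1 CPM in siCT and at 51.4, 49.6 and 50.1 CPM in siPDCD4, without overlap, and its log2 fold change was -0.28 ± 0.10 (adjusted p = 0.392 in edgeR). DEPDC1, also without overlap, had -0.22 ± 0.08 (adjusted p = 0.417 in edgeR). Of 18 further kinases, phosphatases and regulators, 9 were below 0, with a median of 0.01, and TRIP13, which recycles checkpoint complexes, had -0.17 ± 0.11, while CCNF, a cyclin of a ubiquitin ligase, had 0.13 ± 0.09.

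The remaining lists spread around 0 as well. Of 17 condensin and cohesin subunits and regulators outside the members, 9 were below 0. PDS5B, a cohesin regulator, had 0.31 ± 0.12 without overlap of its groups, and WAPL, which releases cohesin, had -0.11 ± 0.10. Of 17 subunits and regulators of the anaphase-promoting complex, 10 were below 0. CDC26, a small subunit, had -0.31 ± 0.13, and FBXO5, an inhibitor of the complex, had 0.17 ± 0.10. Of 19 MuvB, B-MYB, E2F and NF-Y genes, 12 were above 0, with a median of 0.09, and E2F7 and E2F5 had 0.24 ± 0.10 and 0.25 ± 0.13. Among 13 tested CDK inhibitors and anti-proliferative genes, 6 were above 0 and 7 below, with a median of -0.05 and a range from -0.42 to 0.31. CCNG1, a p53 target, had 0.25 ± 0.08, and BTG3 had 0.31 ± 0.11.

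Genes of the start of S phase and DNA replication leaned to the other side of 0, with 24 of 35 above 0 and a median of 0.05. The share below 0 was 31.4% in this list, 66.0% in the 47 mitosis genes and 51.3% in all tested genes. Centred on the siCT mean, this list's median level was 0.08, 0.04 and -0.13 in siCT replicates 1, 2 and 3. In siPDCD4 it was 0.08, 0.09 and -0.01, so siCT replicate 3 was the lowest library. How far the lean of this list rested on that library was not tested. The difference between these lists was not tested. E2F1, the factor that drives entry into S phase, stood at 19.3, 19.1 and 19.6 CPM in siCT and at 26.5, 26.3 and 22.9 CPM in siPDCD4, without overlap, and its log2 fold change was 0.39 ± 0.12 (adjusted p = 0.273 in edgeR). CCNE2, an E cyclin of the same step, had 0.25 ± 0.11 (adjusted p = 0.534 in edgeR).

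**Figure D5:**
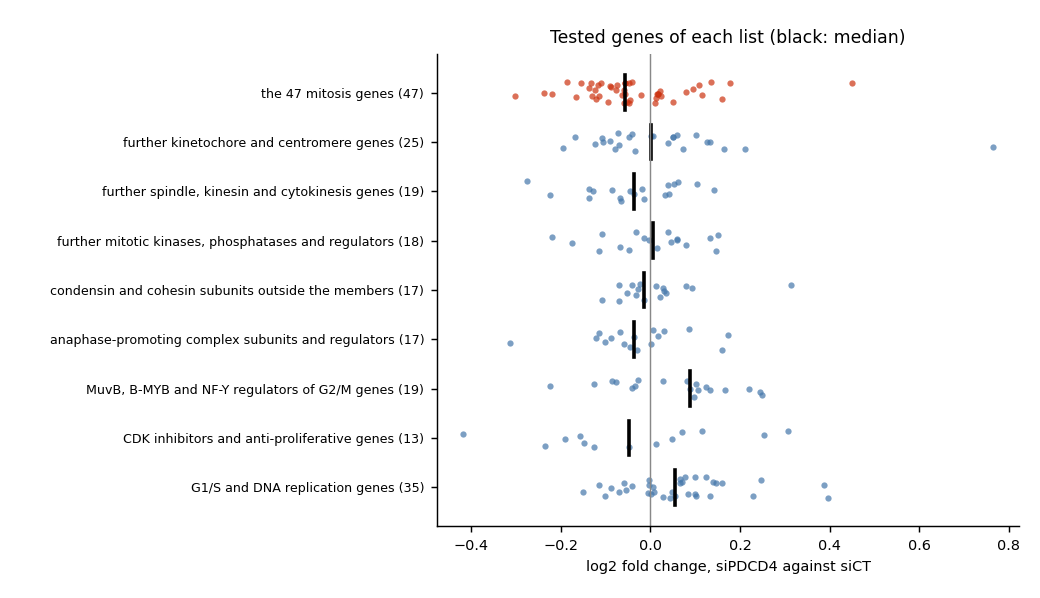
Log2 fold change, siPDCD4 against siCT, of every tested gene of the 47 mitosis genes (red) and of 8 other lists (blue), with the number of genes in brackets and the median as a black bar. The medians lie between -0.06 for the mitosis genes and 0.09 for the MuvB, B-MYB and NF-Y genes, and no gene shown passed an FDR of 5%.

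The transcripts of the members were tested apart from the genes. Of the 371 listed, 222 passed the filter, and edgeR called 0 of them at an FDR of 5%, as it called 0% of all 47375 transcripts tested. At an unadjusted p under 0.05 edgeR found 5 of the 222, and 3.11% of all transcripts. DESeq2 called 3 of them, where it called 1.14% of all transcripts. The counts given here are estimated counts that are not scaled for the library totals. CENPE-201, a protein-coding form, had 1458, 1201 and 866 counts in siCT and 1018, 851 and 836 in siPDCD4. Its log2 fold change, scaled between libraries, was -0.30 ± 0.08 in DESeq2, with an adjusted p of 0.0429 in DESeq2 and 0.9999 in edgeR. ECT2-209 had 0 counts in all siCT libraries and 24.6, 15.7 and 16.3 in siPDCD4. MKI67-204, which has no defined coding sequence, had 27.1, 12.1 and 22.8 counts in siCT and 0 in all siPDCD4 libraries. Salmon divides reads among overlapping transcripts of a gene, and the part of that division in these low estimates was not tested.

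Most members were made mainly from a single transcript, and its share was close in both groups. In siCT the main transcript held over 90% of the gene's counts in 16 members and under 50% in 8. It moved by under 5 percentage points in 40 of 47. The exceptions were KIF14, CENPA, INCENP, AURKA, BUB1, ECT2 and NUF2. KIF14-201 held 55.0%, 53.3% and 69.1% of KIF14 in siCT and 74.1%, 85.0% and 65.1% in siPDCD4, a mean of 59.1 ± 8.70% against 74.7 ± 9.97% (SD, n = 3), and the groups overlapped. ECT2-204 held 38.5%, 42.2% and 38.1% in siCT and 33.7%, 30.1% and 31.2% in siPDCD4, without overlap. These shares were not tested.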

How the data were processed

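Total RNA of 6 libraries (3 siPDCD4, 3 siCT) was sequenced as paired reads of 75 bases from stranded libraries, per the labels. The authors ran Salmon (version not given in the sources used here) against GRCh38 transcripts and deposited a table per library with estimated counts, TPM and effective lengths. The estimated counts deposited by the authors share a read among the transcripts it fits. The TPM values deposited by the authors are scaled by transcript length to the same sum in each library. Of 194142 transcripts, 181244 matched GENCODE release 44 by identifier, and the other 12898 (5.47% to 6.21% of counts) were left out. No column of per-sample values was left unmapped.

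Counts were summed per gene and rounded. The main test was the quasi-likelihood F test of edgeR 4.0.16 under R 4.3.3 (robust, TMM factors, filterByExpr, offset for transcript length, group as the only factor), with Benjamini-Hochberg adjustment over all tested genes. Depth was 13410441 to 21828931 estimated counts per library. DESeq2 1.42.0 and limma-voom (limma 3.58.1, no length offset) were alternatives. Centred levels are log2(CPM + 0.5). Python 3.11.15, pandas 2.3.3 and matplotlib 3.10.9 served for tables and figures.

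The members and lists were chosen with earlier results of these data known. Values per library are given for the members with the smallest p (8), the highest TPM of each role and the largest changes (3 per direction), and from other lists for the 2 genes with the smallest p. Library values of some of the latter are not printed, and KIF15 and E2F2 were not analysed here.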

Additional observations from a re-analysis of the deposited data

How the results depend on the processing

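None of the 47 members was called in any of the 16 alternatives, in either direction, and their lowest adjusted p over these lay between 0.212 (CDC25C, limma-voom) and 0.683. The number of genes called over all tested genes, 56, was 128 with no length offset, 108 with no expression filter, 191 with DESeq2, 127 with limma-voom and 102 with a replicate block. It lay between 17 and 40 when a library was left out. Same-numbered libraries correlated in their deviations by 0.07, 0.12 and 0.18, not all over 0.1, so pairing was not assumed, though a batch shared by a number is not settled by these values. Under the block the lowest adjusted p of a member was 0.319 (KIF4A). The members below 0 numbered 22 to 37 and their median log2 fold change lay between -0.11 and 0.01, with the ends set by leaving out siCT replicate 3 and siPDCD4 replicate 3. The members with an unadjusted p under 0.05 numbered 1 to 9, with 2 without siCT replicate 2, 9 without siCT replicate 3, and 1 without siPDCD4 replicate 2 or 3. CCNE2 was the 1 gene called in the list of S phase and replication genes, with no length offset and with limma-voom. DESeq2 called 3 transcripts of the members. The log2 fold change changed sign for members near 0. BUB3 was at -0.0191 with no length offset and -0.0146 with limma-voom, and PTTG1 at -0.0033 with no length offset. When a library was left out, CCNB1 lay between -0.1026 and 0.0502, AURKA between -0.1743 and 0.0019, BIRC5 between -0.1113 and 0.0261, BUB3 between -0.0176 and 0.0689, and PTTG1 between -0.1326 and 0.1522. The cause was not tested. The CHR letters occurred in 67.5% of members with a window of 100 bases before to 50 after the start, against 8.46% of all genes, and in 65% on the given strand alone, against 10.2%. With 3 libraries per group the median SE of a member, 0.10 on the log2 scale, limits what could be seen, and depth limits SPC25.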
